A study of Mus musculus with 16 samples.

Results

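Single-cell Drop-seq libraries of the hypothalamus and preoptic area were compared between mice lacking the estrogen receptor gene Esr1 in the Nkx2-1 lineage (Esr1cKO) and wild-type mice, all of them given tamoxifen. The comparison took the libraries whose labels gave the injection as tamoxifen, 9 of the 16 in the series: 4 from Esr1cKO mice (S2, S6, S11 and S15) and 5 from wild-type mice (S3, S8, S9, S13 and S16). Each library came from 1 mouse, and the mouse was the unit of every test. The animals were females on a mixed CD-1;129P2 background, 8 to 10 weeks old at the start, which received 28 daily subcutaneous injections of tamoxifen at 0.1 mg/kg. Tissue was taken 2 h after the last injection. In the Esr1cKO mice a floxed Esr1 allele was deleted by Cre expressed from an Nkx2-1 BAC transgene, so the deletion was limited to cells with a history of Nkx2-1 activity and Esr1 was intact elsewhere. The wild-type mice were littermates without Cre, and whether they carried floxed alleles is not stated in the sources used here. The other 7 libraries came from mice injected with oil (4 Esr1cKO, 3 wild-type), and they gave the genotype difference in animals that shared no library with the tamoxifen comparison.

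Esr1 encodes estrogen receptor alpha, a nuclear receptor that regulates transcription when bound by estradiol. Tamoxifen binds the same receptor and acts as an antagonist in some tissues and as a partial agonist in others. Nkx2-1 is a homeodomain transcription factor of the developing ventral forebrain, and neurons of the arcuate nucleus and the ventromedial hypothalamus descend from cells that expressed it. Many arcuate neurons that carry this receptor make kisspeptin (Kiss1), neurokinin B (from the precursor gene Tac2) and dynorphin (from Pdyn). In these cells estradiol is known to lower Tac2 and Kiss1 transcripts, and neurokinin B signalling is known to take part in control of the gonadal axis and of body temperature.

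After barcodes with 201 to 3999 detected genes and under 15% of UMIs (unique molecular identifiers, each standing for 1 captured transcript) on mitochondrial genes were kept, the 9 libraries held 34193 of the 55675 cells in the series, 12606 from Esr1cKO and 21587 from wild-type mice. Kept libraries held 1773412 to 5457033 UMIs and 1888 to 5568 cells, with a median of 563 to 819 UMIs per cell. Levels are given below as CPM, UMIs per 1000000 in the library or, where stated, in the cells of a single type of that library. Each of the 6 pairs within libraries S13 to S16 shared 303 to 359 cell barcodes, S5 shared 10 to 42 with each of those 4, and every other pair shared at most 10. In the comparison this touched S13, S15 and S16, where 410, 327 and 373 cells (7.45%, 8.50% and 9.81%) carried a barcode kept in another library, among them 81, 55 and 68 neurons. When all such cells were left out, 0 genes were called in whole libraries and Nov was again the gene called in neurons (log2 fold change 3.78, adjusted p = 0.00936, edgeR). No doublet caller was run, and the limit on genes per barcode was the only step against doublets. Library S11 stood apart. Genes with more than 100000 bp of intron took 10.8% of its UMIs against 16.6% to 18.0% in the other 8 tamoxifen libraries, and its deposited barcodes started at 100 genes where those of the others started at 20. Several results are therefore also given without it. Where no such value is printed, the dependence on S11 is not shown. Library S8 carried choroid plexus RNA, with 6497 CPM of the transthyretin gene Ttr against at most 11.02 CPM in the other 8. Summed levels of 10 neutrophil genes were 177, 734, 170 and 4.52 CPM in Esr1cKO libraries S2, S6, S11 and S15, and 2.39 to 37.9 CPM in the wild-type libraries.

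**Figure D1:**
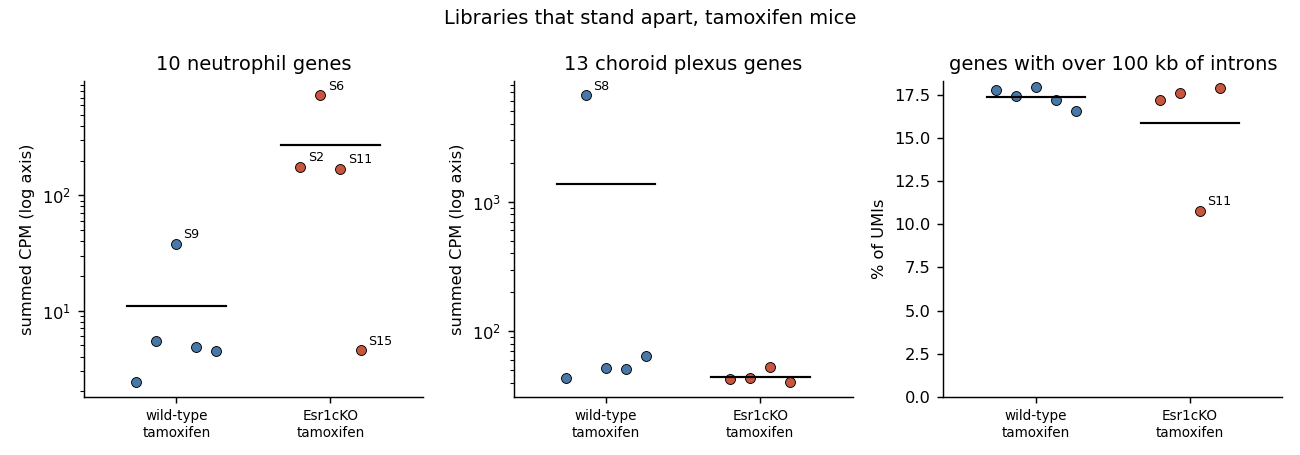
Library properties of the 9 tamoxifen libraries, Esr1cKO and wild-type, with 1 point per library and a line at each group mean, for the summed CPM of 10 neutrophil genes and of 13 choroid plexus genes (log axes) and the percent of UMIs on genes with long introns. S11 lies apart at 10.8% of UMIs on long-intron genes, S8 at 6600.4 CPM of choroid plexus genes, and S2, S6 and S11 at 170 CPM or more of neutrophil genes.

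The targeted gene came first. Esr1 (chromosome 10, 4611593 to 5005614, mm10) was counted in whole Esr1cKO libraries at 44.1, 60.3, 10.1 and 54.3 CPM in S2, S6, S11 and S15. In wild-type libraries S3, S8, S9, S13 and S16 it was at 69.2, 54.8, 54.6, 40.5 and 46.1 CPM. The groups overlapped, S11 was far below every other library, and the means were 42.2 ± 22.4 CPM (SD, n = 4) and 53.1 ± 10.9 CPM (SD, n = 5). S11 is also the library with a low share of UMIs on long-intron genes, and whether that lowered its Esr1 was not tested. The log2 fold change of Esr1cKO over wild-type was -0.34 with a standard error of 0.38 (adjusted p = 0.997, edgeR quasi-likelihood test), and -0.004 without S11. Among neurons Esr1 stood at 49.6, 71.3, 17.1 and 73.9 CPM in Esr1cKO libraries and at 57.3 to 74.5 CPM in wild-type libraries. Drop-seq counts the 3′ ends of transcripts, so a transcript lacking the floxed part of the gene can still be counted and the level of Esr1 does not check the deletion. In whole libraries, fewer cells of a type and less RNA per cell cannot be told apart, and Esr1 in cells outside the Nkx2-1 lineage is part of the same sum.

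None of the other receptor and lineage genes passed the test either. Pgr, the progesterone receptor and a transcript induced by estradiol, had 16.3, 11.3, 2.20 and 9.31 CPM in Esr1cKO against 20.6, 13.8, 12.1, 10.8 and 7.48 CPM in wild-type libraries, a log2 fold change of -0.43 that came to -0.07 without S11. Greb1, a coactivator of estrogen receptor alpha and itself an estrogen-induced gene, had a log2 fold change of -0.44 (-0.11 without S11). In neurons alone Greb1 was at 11.8, 4.75, 2.31 and 12.1 CPM in Esr1cKO and at 9.42 to 21.9 CPM in wild-type libraries, a log2 fold change of -0.93 (unadjusted p = 0.065, adjusted p = 0.996, edgeR). Nkx2-1, Esr2 (estrogen receptor beta) and Gper1 (the G-protein-coupled estrogen receptor) had log2 fold changes of 0.08, -0.06 and 0.17. Of the 7 estrogen and progesterone receptor genes, 1 was higher and 6 were lower in Esr1cKO, none past the test, with a median log2 fold change of -0.27 against -0.003 over all genes tested. Without S11 the split was 3 higher and 4 lower, with a median of -0.004. The 7 genes summed to 55.1 CPM in S11 and to 54.9 CPM in wild-type oil library S10, which is also low in long-intron UMIs. All other libraries of the series lay at 116 to 238 CPM. Genes next to Esr1 on its chromosome split 4 higher and 4 lower, and those next to Nkx2-1 split 1 higher and 5 lower, none of them called.

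In whole libraries 0 of 15864 genes tested passed an adjusted p of 0.05 (0%), and 374 had an unadjusted p below 0.05, 162 of them higher (1.02%) and 212 lower (1.34%) in Esr1cKO. DESeq2 also called 0 genes and had 342 at an unadjusted p below 0.05. Esr1cKO and wild-type libraries did not overlap for 57 genes that were higher (0.359%) and 117 that were lower (0.738%) in Esr1cKO. Without S11, 0 of 16006 genes were called and 415 had an unadjusted p below 0.05. The 6 genes with the lowest p in each direction are given next as values, all with an adjusted p of 0.997 in edgeR. They were picked by p in these same libraries, which favours groups without overlap.

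Among the higher genes, the S100a9 transcript, an alarmin stored in neutrophils, was at 54.2, 203 and 55.5 CPM in S2, S6 and S11. It was at 0.532 CPM in the fourth Esr1cKO library S15 and at 0.249 to 4.58 CPM in wild-type libraries. Its log2 fold change was 5.62 ± 1.13 (SE), and its level rested on 3 of the 4 Esr1cKO mice. Tac2, the precursor of neurokinin B, was at 516, 45.7, 498 and 396 CPM in Esr1cKO libraries S2, S6, S11 and S15. In wild-type libraries S3, S8, S9, S13 and S16 it was at 62.4, 51.6, 20.7, 62.6 and 118 CPM. In 3 of 4, Esr1cKO libraries lay above every wild-type library, while S6 lay within the wild-type range. The log2 fold change of Tac2 was 2.57 ± 0.61 (SE, unadjusted p = 0.0015), and 2.35 without S11.

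Npy2r, a receptor for neuropeptide Y that lowers transmitter release, was at 23.5, 24.8, 26.4 and 12.2 CPM in Esr1cKO against 13.7, 11.2, 6.23, 10.1 and 7.98 CPM in wild-type libraries. Only S15 lay within the wild-type range. Levels of Acp1, a low-molecular-weight phosphatase, were 35.4, 30.4, 55.1 and 34.3 CPM against 15.6 to 27.3 CPM, without overlap. The clock gene Per1, whose transcript also responds to neuronal activity and glucocorticoids, was at 47.1 to 63.2 CPM in Esr1cKO and at 34.7 to 44.6 CPM in wild-type libraries. Its log2 fold change was 0.52. The zinc-finger gene Zfp763 was at 13.04 to 16.9 CPM against 7.98 to 11.04 CPM, again without overlap.

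Among the lower genes, the Ntsr2 transcript, a neurotensin receptor of astrocytes, was at 257, 259, 150 and 249 CPM in Esr1cKO libraries. It was at 323, 462, 358, 353 and 424 CPM in wild-type libraries, without overlap, and S11 was the lowest of all. The log2 fold change of Ntsr2 was -0.72 ± 0.18 (SE, unadjusted p = 0.0018). Etnppl, an astrocyte enzyme that breaks down phosphoethanolamine, was at 40.0 to 66.5 CPM against 71.9 to 121 CPM, without overlap. Padi2, a peptidylarginine deiminase of oligodendrocytes, was at 38.6 to 48.8 CPM in Esr1cKO and at 47.4 to 77.7 CPM in wild-type libraries, with S3 reaching into the Esr1cKO range. Dhrs11, a short-chain dehydrogenase that acts on steroids, was at 1.45, 1.13, 0.367 and 2.13 CPM against 3.21 to 4.07 CPM. Its log2 fold change was -1.56, and -1.16 without S11. The transcript 2900076A07Rik was at 17.5 to 21.7 CPM against 26.3 to 33.7 CPM. Scel, which encodes sciellin, was at 4.96 to 9.04 CPM against 9.85 to 13.6 CPM. The groups did not overlap for Dhrs11, 2900076A07Rik or Scel.

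**Figure D2:**
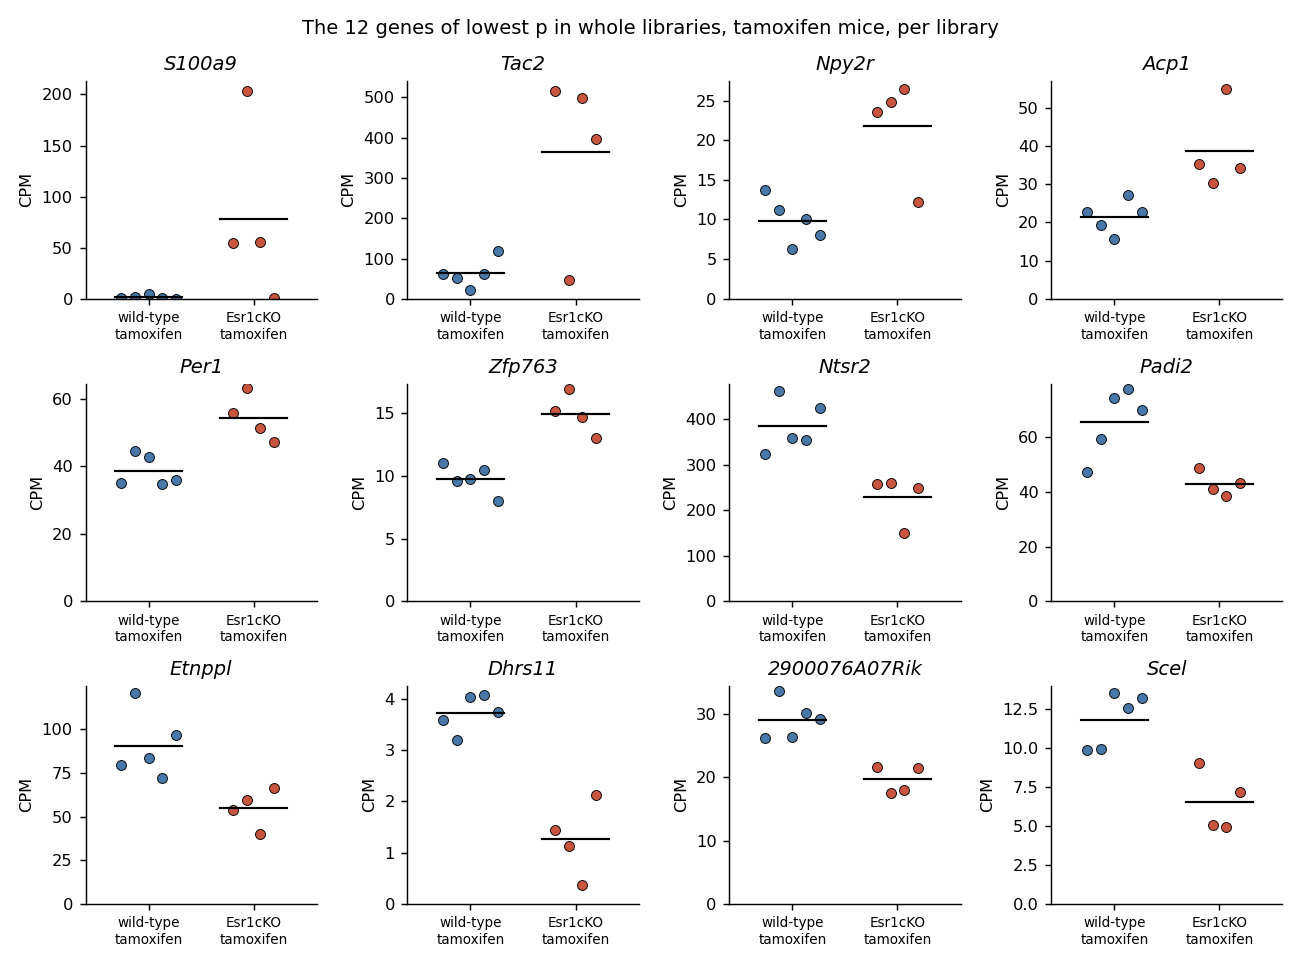
Levels in CPM of the 12 genes with the lowest p in whole libraries, 1 point per tamoxifen library, Esr1cKO and wild-type, with a line at each group mean. The libraries of the groups do not overlap for Ntsr2, Etnppl, Dhrs11, 2900076A07Rik, Scel, Acp1, Per1 or Zfp763, whereas S15 lies among the wild-type libraries for S100a9 and S6 for Tac2. The genes were picked by p in these same libraries, which favours groups without overlap.

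The same 12 genes were then looked up in the mice given oil. Of the 12 genes, 7 had the same sign there, which is close to an even split. An unadjusted p below 0.05 was found for 3 of those, beside 3.82% of all genes tested in oil. Tac2 was at 301, 102, 242 and 73.7 CPM in Esr1cKO libraries S4, S7, S12 and S14 and at 30.9, 23.7 and 34.3 CPM in wild-type libraries S1, S5 and S10. The oil groups did not overlap for Tac2, and the log2 fold change was 2.64. For oil mice the share of all genes without overlap is not given here, in whole libraries or in neurons. A lack of overlap there cannot be called unusual. Npy2r had a log2 fold change of 1.07 in oil. Ntsr2 was at 145, 194, 290 and 147 CPM against 335, 403 and 373 CPM, a log2 fold change of -0.90, without overlap. Acp1, Per1, Zfp763 and Padi2 kept their sign at smaller sizes, 0.20, 0.005, 0.28 and -0.18. Signs opposite to those under tamoxifen were seen for S100a9 (-2.30), Etnppl (0.15), Dhrs11 (0.48), 2900076A07Rik (0.10) and Scel (0.45).

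Cells were then split by type. Joint clustering gave 9 clusters, each of which carried at least 11 of its 12 to 14 type markers above the other clusters, and they were named neurons, astrocytes, oligodendrocytes, polydendrocytes, endothelial cells, microglia, ependymal cells, mural cells and fibroblasts. The fibroblast cluster was also led by Bpifa1 and Tshb, which do not mark fibroblasts. The endothelial cluster also carried 9 mural markers above the other clusters. When clustered more finely (resolution 0.5), 780 cells named microglia formed a cluster led by S100a8, Lyz2 and Cd74. It carried 8 of 12 microglial markers above the other clusters but 0 among its 10 leading genes. The tamoxifen libraries held 5456 neurons, 2091 from Esr1cKO and 3365 from wild-type mice.

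In neurons a single gene passed the test. Nov (now named Ccn3, chromosome 15, 54745702 to 54754039 on the plus strand, mm10), which encodes a secreted matricellular protein of the CCN family, was at 83.4, 28.5, 103 and 70.6 CPM of neuronal UMIs in Esr1cKO libraries S2, S6, S11 and S15. In wild-type libraries S3, S8, S9, S13 and S16 it was at 1.99, 7.61, 7.16, 10.4 and 2.83 CPM. Every Esr1cKO library lay above every wild-type library, and the means were 71.5 ± 31.7 CPM (SD, n = 4) and 6.01 ± 3.53 CPM (SD, n = 5), a ratio of 11.9. These levels rested on 406 UMIs of Nov in Esr1cKO neurons and 35 in wild-type neurons. Nov rose by 3.68 ± 0.42 (SE) on the log2 scale, with an adjusted p of 0.0179 in edgeR's quasi-likelihood test over the 11472 genes tested in neurons. It was the only gene called there (0.00872%). At an unadjusted p below 0.05, 198 neuronal genes were higher (1.73%) and 247 lower (2.15%).

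Leaving out S11 kept the call (log2 fold change 3.46, adjusted p = 1.2e-04, edgeR), as did leaving out S6 or S13. The adjusted p of Nov passed 0.05 when S2, S3, S8, S9, S15 or S16 was left out, reaching 0.0756 to 0.123, while the log2 fold change stayed between 3.41 and 3.99 over all 9 omissions. The call was also lost with a term for successive fours of library numbers (log2 fold change 3.62, adjusted p = 0.286, edgeR). In neurons of mice given oil, Nov was at 56.2, 45.1, 45.1 and 43.1 CPM in Esr1cKO libraries S4, S7, S12 and S14 and at 3.27, 10.3 and 10.3 CPM in wild-type libraries S1, S5 and S10. Those groups did not overlap either, and the log2 fold change was 2.48 ± 0.31 (SE, adjusted p = 0.114, edgeR). Whether the genotype difference in Nov differed between tamoxifen and oil was not tested in neurons. In other cell types Nov was carried mainly by fibroblasts (268 UMIs in Esr1cKO, 396 in wild-type libraries, log2 fold change 0.16) and endothelial cells (62 and 84 UMIs, log2 fold change 0.09). In whole libraries, where those cells are part of the sum, Nov was at 19.7 to 83.0 CPM against 9.48 to 55.4 CPM and was not called.

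**Figure D3:**
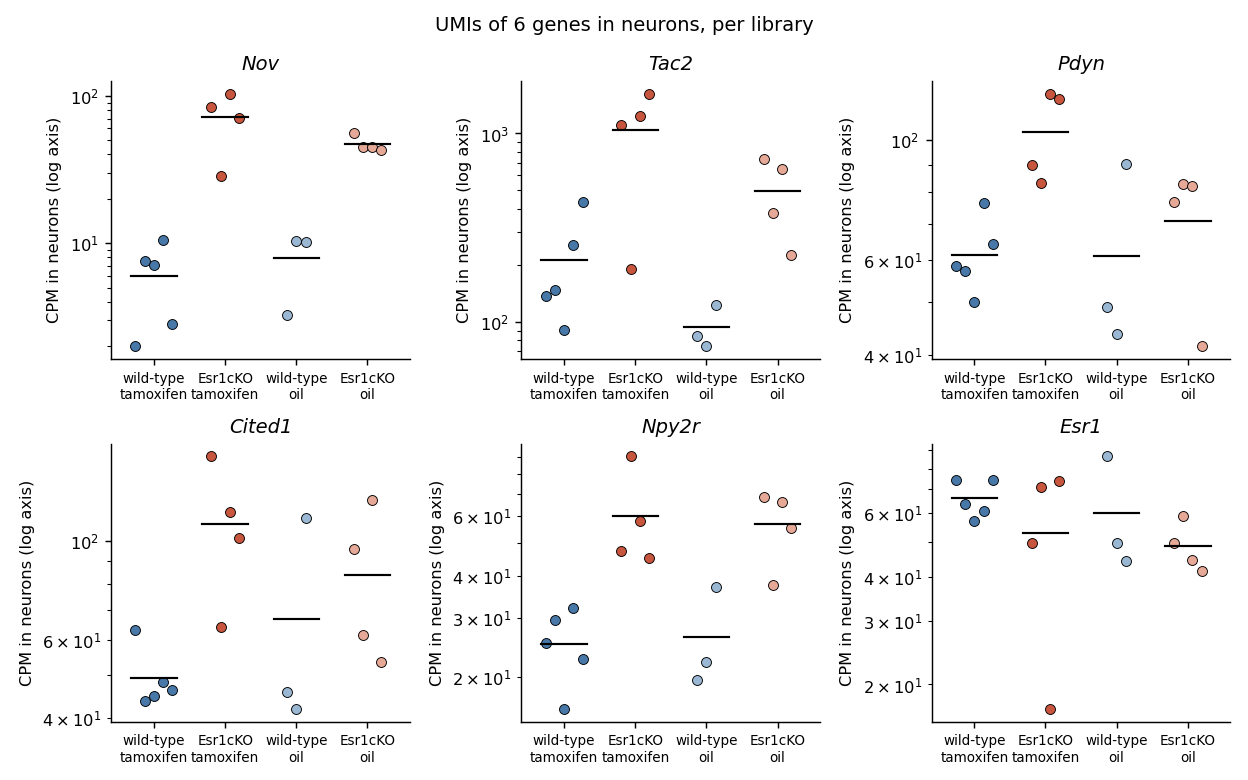
Levels in neurons (CPM of neuronal UMIs, log axis) of Nov, Tac2, Pdyn, Cited1, Npy2r and Esr1, 1 point per library and a line at each group mean, for Esr1cKO and wild-type mice given tamoxifen and given oil. For Nov the 4 Esr1cKO libraries under tamoxifen lie between 28.5 and 103 CPM and the 5 wild-type libraries between 1.99 and 10.4 CPM.

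Several other neuronal genes had groups that did not overlap without passing the test, and those that belong to no list were chosen after their values were seen. The share of all neuronal genes without overlap is not given here, so the lack of overlap cannot be called unusual. Cited1, a transcriptional coregulator known to bind estrogen receptor alpha, was at 155, 64.1, 116 and 101 CPM in Esr1cKO neurons and at 63.1, 43.8, 44.7, 48.2 and 46.2 CPM in wild-type neurons. Its lowest Esr1cKO library, S6, and its highest wild-type library, S3, were almost level, and the log2 fold change was 1.21 ± 0.21 (SE, adjusted p = 0.462, edgeR). DESeq2 called Cited1 together with Nov. Pdyn, the precursor of dynorphin, was at 89.7, 83.1, 122 and 119 CPM against 58.5, 57.1, 50.1, 76.3 and 64.1 CPM, a log2 fold change of 0.80. Npy2r was at 45.2 to 90.3 CPM against 16.1 to 32.1 CPM, a log2 fold change of 1.23, and Acp1 at 49.6 to 76.2 CPM against 19.7 to 38.5 CPM, a log2 fold change of 1.13. In oil the log2 fold changes were 0.33 for Cited1, 0.21 for Pdyn, 1.12 for Npy2r and -0.03 for Acp1.

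Tac2 in neurons was at 1108, 192, 1235 and 1625 CPM in Esr1cKO libraries S2, S6, S11 and S15 and at 137, 148, 91.3, 256 and 434 CPM in the wild-type libraries. S6 lay below wild-type libraries S13 and S16, so the groups overlapped. Its log2 fold change was 2.32 ± 0.55 (SE, unadjusted p = 0.0012, adjusted p = 0.996, edgeR). Under oil the neuronal levels were 732, 381, 647 and 226 CPM against 84.9, 74.4 and 124 CPM, without overlap. Neurons carried 98.8% of the Tac2 UMIs of Esr1cKO and 97.2% of those of wild-type libraries.

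Neurons with at least 3 Tac2 UMIs were looked at as cells, a limit chosen after the data were seen. There were 93 such cells in Esr1cKO libraries (16, 2, 55 and 20 in S2, S6, S11 and S15) and 96 in wild-type libraries (18, 16, 9, 15 and 38 in S3, S8, S9, S13 and S16). As a share of neurons they made up 2.32%, 0.823%, 7.62% and 4.58% in Esr1cKO and 1.99%, 2.75%, 1.60%, 2.07% and 6.44% in wild-type libraries, so the shares overlapped widely. The mean content of Tac2 per such cell did not overlap between the groups, and its median did. It averaged 86.7, 37, 48.2 and 73.2 UMIs in the Esr1cKO libraries and 10.8, 9.38, 10.9, 20 and 11.4 UMIs in the wild-type libraries. Medians were 57, 37, 12 and 62 UMIs in Esr1cKO and 7.5, 5.5, 7, 18 and 9.5 UMIs in wild-type libraries, so S11, which held most of the Esr1cKO cells, lay below S13. The medians overlapped at other limits too. Over neurons with at least 1 Tac2 UMI they were 2, 2, 7 and 37.5 against 3, 4, 5, 2.5 and 6 UMIs, and at 10 UMIs or more they were 125, 69, 21 and 64.5 against 23, 15, 22, 21 and 14 UMIs. Means of the oil libraries were 51.1, 42.1, 38.3 and 38.3 UMIs in Esr1cKO and 12.5, 6.45 and 16.6 UMIs in wild-type mice. The value of S6 came from only 2 cells. Because the cells were chosen by their Tac2 count, these levels are a description and carry no test.

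The same cells held most of the neuronal Nov. In Esr1cKO libraries S2, S6, S11 and S15 they contained 81, 8, 198 and 60 UMIs of Nov, in sum 347 of the 406 counted in neurons (85.5%), spread over 40 of the 93 cells. The 96 wild-type cells contained 0 UMIs of Nov, which allows a share of cells with a UMI of up to 3.12% for counting error alone. That amounts to 883 CPM in the Esr1cKO cells against a limit of 9.34 CPM, set by 3 counts over the wild-type cells. The Esr1cKO level was 94.5-fold this limit. Without S16, which held 38 of the wild-type cells, the limit was 16.8 CPM and the ratio 52.5-fold. Cells of a group were pooled for these ratios, which allow for counting error in the wild-type cells only and not for the spread between mice. As the cells were chosen by their Tac2 count, the ratios are a description. In oil mice 172 of the 241 neuronal Nov UMIs of Esr1cKO lay in 61 such cells, and 1 of 24 in the 22 such cells of wild-type mice. Seen from the other side, 36 Esr1cKO neurons under tamoxifen had at least 3 Nov UMIs, and 32 of them also had at least 3 of Tac2. A single wild-type neuron had at least 3 Nov UMIs, and it did not have 3 of Tac2.

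Other transcripts of these cells are given as summed UMIs in the 93 Esr1cKO and the 96 wild-type cells, chosen after their values were seen except for list members. The cells held 62668, 8717, 231959 and 89609 UMIs of all genes in Esr1cKO libraries S2, S6, S11 and S15. Those of wild-type libraries S3, S8, S9, S13 and S16 held 54415, 42772, 30682, 50472 and 142737. The sums are not scaled to these totals, so a sum is not a level. Pdyn had 296 UMIs against 56, and by library 69, 3, 153 and 71 against 25, 4, 7, 18 and 2. Kiss1, the kisspeptin precursor, had 22 against 3 UMIs, and the arcuate transcription factor Tbx3 had 89 against 20. Cited1 had 123 against 26 UMIs, Vgf, a secreted granin-like precursor, had 363 against 21, and the prohormone convertase Pcsk1 had 262 against 42. Esr1 had 48 UMIs against 66, and by library 11, 1, 10 and 26 against 22, 7, 7, 23 and 7. Given the unequal totals, these Esr1 counts give no order of its level. Of the 93 Esr1cKO cells 55 came from S11, and without S11 the remaining 38 held 38 UMIs of Esr1. The same 38 cells held 143 UMIs of Pdyn, 14 of Kiss1, 48 of Tbx3, 54 of Cited1, 154 of Vgf and 123 of Pcsk1. Pgr had 0, 0, 1 and 2 against 6, 0, 4, 1 and 0 UMIs, and Greb1 0, 0, 1 and 1 against 5, 2, 1, 2 and 0 UMIs, counts too low to give an order. Neither Npy2r (1 against 3) nor Npy (0 against 0) was carried by these cells. The cells did not have the same makeup in every wild-type library: in S16, which held 38 of the 96, Tbx3 and Cited1 had 0 UMIs and Pdyn 2.

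**Figure D4:**
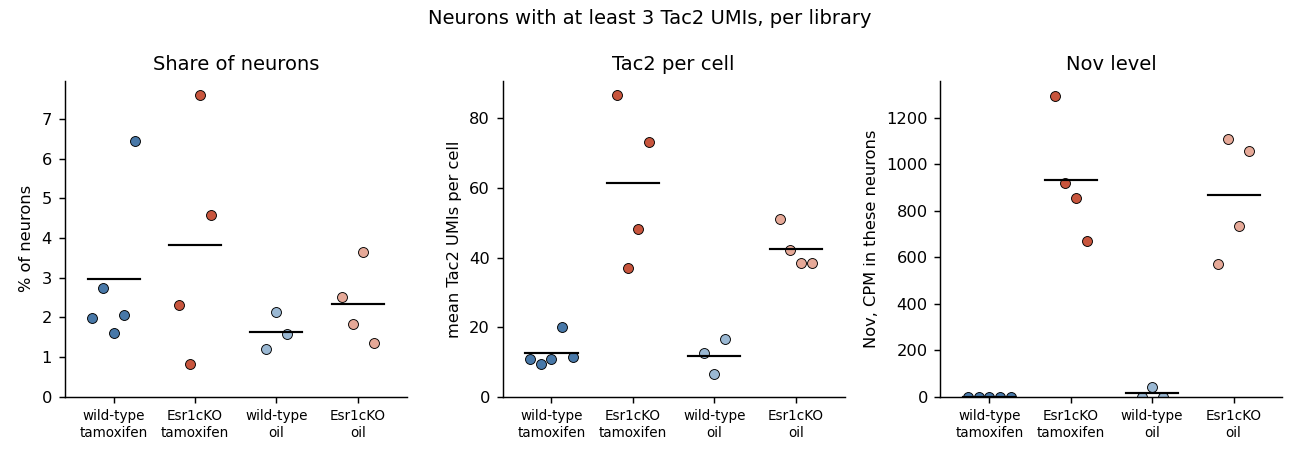
Neurons with at least 3 Tac2 UMIs in each library: their share of neurons in percent, mean Tac2 UMIs per such cell, and the level of Nov in them in CPM of their UMIs, with 1 point per library and a line at each group mean, for Esr1cKO and wild-type mice under tamoxifen and oil. The shares overlap, whereas mean Tac2 per cell lies at 37 or more in every Esr1cKO library under tamoxifen and at 20 or less in every wild-type library. The medians, which are not drawn, overlap (12 in S11, 18 in S13).

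Depth per neuron differed between the groups, with a median of 1786 UMIs in Esr1cKO and 1263 in wild-type neurons. Each neuron was therefore thinned to 500 UMIs, which left out 313 and 779 shallower neurons. The share of neurons with at least 1 Nov UMI was then 1.80% in Esr1cKO and 0.193% in wild-type libraries (3.54% and 0.892% before thinning). For Cited1 it was 4.27% against 1.70% (10.9% and 5.77% before), and for Tac2 4.89% against 3.40% (7.08% and 4.55% before). Neurons of a group were pooled for these shares, so the spread between mice is left out, and S11 held 722 of the Esr1cKO neurons. By library before thinning, S6 lay within the wild-type range for each gene (Nov 1.23%, Cited1 4.94%, Tac2 2.88%). S2, S11 and S15 lay above that range for Nov and Cited1. For Tac2 only S11 did (10.7%, against 10.3% in S16). Astrocytes, which should lack Tac2, had 0.278% and 0.114% of cells with a Tac2 UMI after thinning. Median depths of all astrocytes were 454 and 469 UMIs, so most of them fell below 500 UMIs and were left out of these shares.

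Genes known to be regulated by estrogens in the hypothalamus were followed as a list. Of 16 tested in whole libraries, 13 were higher and 3 lower in Esr1cKO, with a median log2 fold change of 0.16 and 0 called. Tac2, Pdyn, Cited1 and Penk, the enkephalin precursor, had an unadjusted p below 0.05. Among all genes tested, 1.02% were higher and 1.34% lower at that p. Without S11 the split was 11 higher and 5 lower, with a median of 0.13. Penk was at 75.9, 119, 90.2 and 72.9 CPM in Esr1cKO and at 78.2, 62.5, 39.2, 42.0 and 67.1 CPM in wild-type libraries, a log2 fold change of 0.67. In neurons 10 of 15 were higher, with a median of 0.54 beside -0.02 over all neuronal genes. In oil mice 11 of 16 were higher, with a median of 0.29.

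The regulatory sequence at 2 of these genes is shown because the results above turn on their transcripts. Each is the 250 bases before the RefSeq transcription start (GRCm38.p6), read 5′ to 3′ on the strand of the gene. Promoters were searched on both strands for the estrogen response element GGTCANNNTGACC and for its single arm, GGTCA or TGACC. Capitals mark an arm.
Tac2, chr10:127724228-127724477, plus strand: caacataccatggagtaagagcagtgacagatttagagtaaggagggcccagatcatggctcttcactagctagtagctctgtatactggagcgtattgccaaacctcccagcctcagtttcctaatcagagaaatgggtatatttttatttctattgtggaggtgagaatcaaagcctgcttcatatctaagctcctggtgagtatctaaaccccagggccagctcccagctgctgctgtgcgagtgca
Cited1, chrX:102252182-102252431, minus strand: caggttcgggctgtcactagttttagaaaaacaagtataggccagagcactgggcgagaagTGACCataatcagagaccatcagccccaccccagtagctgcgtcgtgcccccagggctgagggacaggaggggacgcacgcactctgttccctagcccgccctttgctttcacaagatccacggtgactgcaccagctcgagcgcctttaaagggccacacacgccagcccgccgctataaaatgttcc

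The Tac2 window held no arm. The Cited1 window shown, the first of 3 listed for that gene, held 1. The second Cited1 window held 0 and the third held 1. An arm is common, being found in the 250 bases before the start in 35.2% of all 32851 promoters in the table. Over 300 bases (250 before to 50 after the start) an arm was found in 40.5% of them. The whole element was found in 23 of these 300-base promoters (0.0700%). None of the 16 promoters listed for the 10 genes searched held the whole element. A match is a description of the letters and the absence of a match covers only these windows. Nov is not in the table.

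Neuropeptide precursors as a list had 24 of 32 tested genes higher in Esr1cKO whole libraries, with a median log2 fold change of 0.31 and 0 called. Without S11 it was 19 of 32 with a median of 0.19, and in neurons 20 of 29 with a median of 0.22. Npy, the orexigenic peptide of arcuate neurons, was at 392, 34.4, 98.6 and 66.2 CPM against 29.3 to 67.4 CPM, and the difference rested mostly on S2. Avp, the vasopressin precursor, was at 3355, 2081, 1652 and 1096 CPM in Esr1cKO and at 1239, 4984, 566, 1004 and 529.8 CPM in wild-type libraries, with a spread within either group as wide as the distance between them. Of the transcription factors that mark hypothalamic regions, 24 of 36 were higher with a median of 0.11, and without S11 18 of 37. Tbx3 was the only one with an unadjusted p below 0.05, at 59.1 to 79.6 CPM against 37.6 to 65.8 CPM. Endothelial cells held 564 UMIs of Tbx3 in Esr1cKO and 707 in wild-type libraries (log2 fold change 0.25, not called). The whole-library level of Tbx3 is therefore not that of neurons alone. Markers of striatum, a neighbouring region, were higher for 9 of 10 genes with a median of 0.20. They summed to 322, 518, 246 and 351 CPM in S2, S6, S11 and S15 and to 268 to 341 CPM in wild-type libraries, so the groups overlapped. Markers of cortex and hippocampus (2 of 7 higher) and thalamus (3 of 6 higher) did not lean the same way. Genes of the pituitary and pars tuberalis were higher for 4 of 5.

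All 12 astrocyte markers were lower in Esr1cKO whole libraries, with a median log2 fold change of -0.44, and 8 had an unadjusted p below 0.05, although 0 were called. Of all genes tested, 1.34% were lower at that p. Slc1a2, the main astrocyte glutamate transporter, was at 540, 637, 519 and 690 CPM in Esr1cKO and at 683, 887, 810, 971 and 826 CPM in wild-type libraries. Aldoc, the astrocyte form of aldolase, was at 422 to 552 CPM against 569 to 1015 CPM, without overlap. Without S11 the 12 were again all lower, with a median of -0.39 and 4 at an unadjusted p below 0.05. In oil mice all 12 were lower too, with a median of -0.54. When only the UMIs of astrocytes were compared, 8 of the same 12 were higher and 4 lower, the median was 0.03, and none had an unadjusted p below 0.05. Astrocytes made up 19.7%, 21.6%, 15.97% and 25.8% of cells in Esr1cKO libraries S2, S6, S11 and S15. In wild-type libraries S3, S8, S9, S13 and S16 their share was 20.5%, 28.8%, 29.3%, 26.5% and 31.2%.

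Mean shares of astrocytes were 20.8% ± 4.1 (SD, n = 4) and 27.2% ± 4.1 (SD, n = 5), a difference of -6.48 percentage points (p = 0.0635, exact two-sided permutation test over all splits of 9 libraries, adjusted p = 0.429 over 9 types). Leaving out S11 gave -4.88 points. Under oil the shares were 19.8% ± 5.1 (SD, n = 4) and 28.7% ± 0.8 (SD, n = 3), without overlap (p = 0.0571, the smallest value an exact permutation test allows for 4 against 3). Microglia made up 11.3% ± 2.7 (SD, n = 4) of Esr1cKO and 9.25% ± 0.61 (SD, n = 5) of wild-type cells (exact permutation p = 0.0952). That difference of 2.01 points rested on S6 at 15.1%, with S2, S11 and S15 at 10.6%, 9.02% and 10.3%, and it was 0.73 points without S6. S6 also had the highest sum of neutrophil genes (734 CPM), and the part of cells other than microglia in its share was not tested. Neurons made up 16.7% ± 6.1 (SD, n = 4) and 16.5% ± 5.7 (SD, n = 5). Means for the remaining types were 14.5% and 12.4% for endothelial cells, 16.6% and 15.6% for oligodendrocytes, 8.24% and 7.34% for polydendrocytes, 5.65% and 5.03% for ependymal cells, 4.48% and 4.47% for mural cells, and 1.82% and 2.06% for fibroblasts. No type passed the adjusted threshold. Shares are of cells that survived papain dissociation and the filters, so they are not shares of the tissue.

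**Figure D5:**
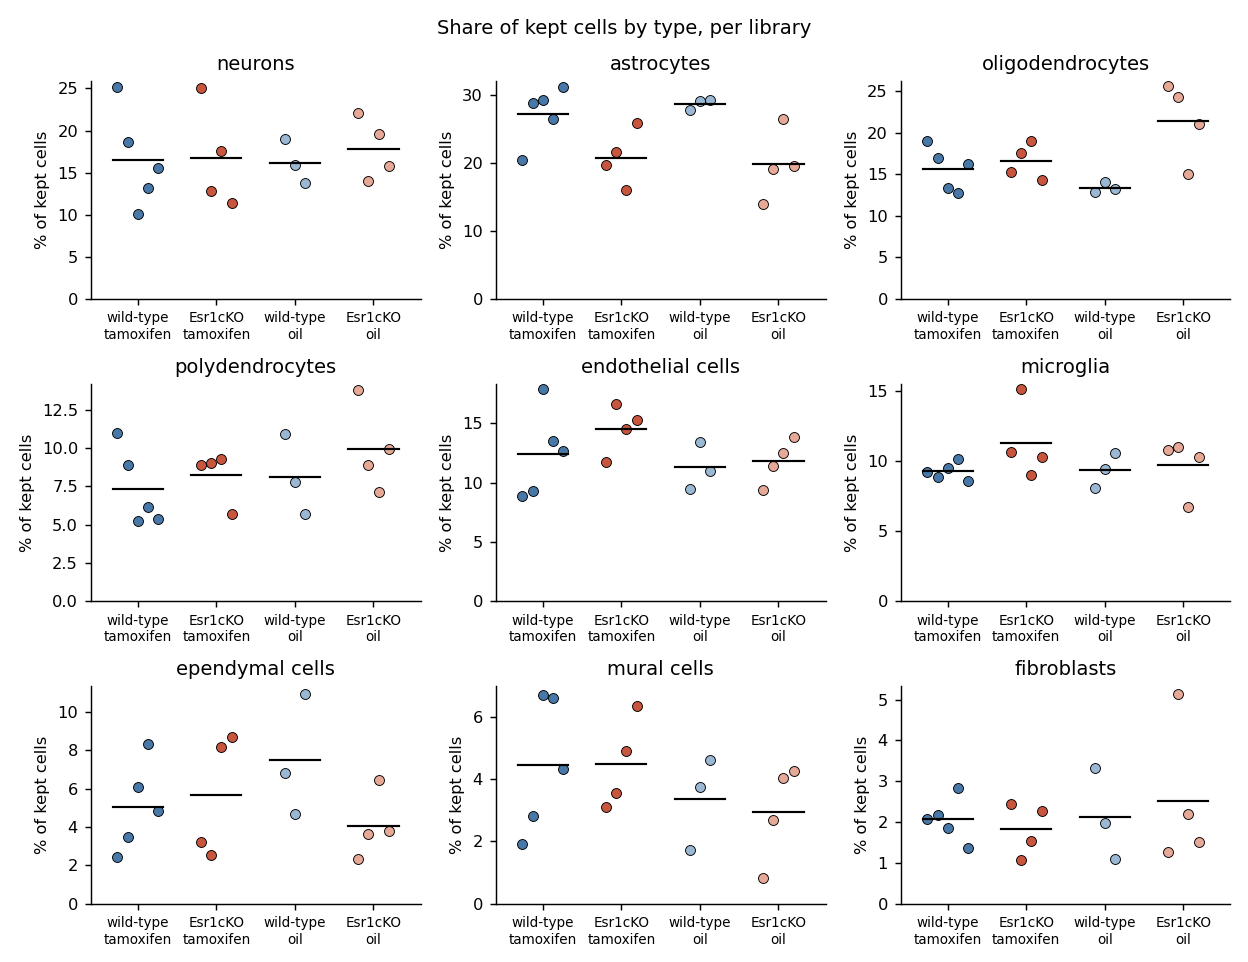
Share of kept cells in percent by cell type, 1 point per library, for Esr1cKO and wild-type mice under tamoxifen and oil, with a line at each group mean. Under tamoxifen, astrocytes lie at 15.97% to 25.8% in Esr1cKO and at 20.5% to 31.2% in wild-type libraries.

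In the other 8 types 0 genes were called. Genes at an unadjusted p below 0.05 numbered 272 of 8624 in astrocytes (3.15%), 264 of 7214 in oligodendrocytes (3.66%), 244 of 6151 in polydendrocytes (3.97%) and 264 of 8419 in endothelial cells (3.14%). The same count was 155 of 4965 in microglia (3.12%), 255 of 7199 in ependymal cells (3.54%), 51 of 2409 in mural cells (2.12%) and 29 of 1583 in fibroblasts (1.83%).

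Neutrophil genes were found within the microglia cluster. S100a9 was at 865, 1611.5, 1102 and 0 CPM of microglial UMIs in Esr1cKO libraries S2, S6, S11 and S15, and at 49.2 CPM in wild-type library S9 and 0 in the other wild-type libraries. S100a8, its partner in calprotectin, was at 1123, 2177, 1222 and 0 CPM against 0 to 231 CPM. The S100a9 UMIs numbered 786 in Esr1cKO and came from 11 cells. Neither passed the test (adjusted p = 0.520 for S100a9, edgeR). In whole libraries 4 of the 10 neutrophil genes passed the filter on low counts, which they could do through the Esr1cKO libraries where they were high. All 4 were higher, with a median log2 fold change of 4.62, a direction that the filter favoured in advance. In oil mice the list summed to 2.98 to 18.6 CPM in Esr1cKO and 4.75 to 129 CPM in wild-type libraries. Globin genes, which mark red blood cells, were higher for 4 of 4 with a median log2 fold change of 0.24, and their part in the neutrophil result was not tested. Dcn, the proteoglycan decorin, chosen after its values were seen, was at 310, 322, 242 and 55.3 CPM in endothelial cells of Esr1cKO and at 68.0 to 97.8 CPM in wild-type libraries. Dcn is also a fibroblast marker and led the fibroblast cluster. Whether its UMIs in the endothelial cluster came from endothelial cells was not tested.

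Immediate early genes, which respond to neuronal activity and to tissue handling, were higher for 24 of 27 in Esr1cKO whole libraries, with a median log2 fold change of 0.24 and 0 called. Without S11 it was 23 of 27 with a median of 0.19, and in oil mice 16 of 27 with a median of 0.05. Fos was at 1605 to 1801 CPM against 1222 to 1611 CPM, and Jun at 1342 to 1527 CPM against 1117 to 1341 CPM. Within neurons the list split 13 higher and 13 lower, with a median of -0.006. Heat shock and endoplasmic reticulum chaperones were higher for 26 of 28 with a median of 0.24 (23 of 28 and 0.14 without S11, 16 of 28 and 0.06 in oil). In neurons 25 of 25 were higher, with a median of 0.20 and 5 at an unadjusted p below 0.05, beside 3.88% of all neuronal genes. The neuronal count without S11 is not given. In whole libraries the chaperones summed to 9903, 8224, 12901 and 10180.5 CPM in S2, S6, S11 and S15. Wild-type libraries under tamoxifen summed to 8082 to 9640 CPM. Wild-type oil library S10, also low in long-intron UMIs, was at 12275 CPM. Whether the chaperones follow that property was not tested. Hspa1b, an inducible member of the Hsp70 family, was not among the list members of highest level and is named outside the rule. It was at 10.49, 24.2, 20.4 and 16.5 CPM in Esr1cKO whole libraries. In wild-type whole libraries it was at 8.35, 8.66, 12.8, 11.04 and 6.73 CPM. Only S2 lay within the wild-type range of Hspa1b, and in oil its log2 fold change was -0.23.

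The metabolic lists moved little, and some turned with S11. Nuclear genes of oxidative phosphorylation were higher for 71 of 93 with a median log2 fold change of 0.07, but for 37 of 93 with a median of -0.03 without S11. Cytosolic ribosomal protein genes were higher for 70 of 83 with a median of 0.08, and for 40 of 83 without S11. The direction of both lists therefore depended on that library. Glycolysis genes split 10 higher and 9 lower. Transcripts of the mitochondrial genome were lower for 26 of 28 with a median of -0.32, and for 25 of 28 without S11, whereas in oil 22 of 28 were higher. Their summed level leaned the other way, at 43457, 52927, 85392 and 59999 CPM in Esr1cKO libraries S2, S6, S11 and S15 and at 51922, 54621, 47101, 58773 and 33206 CPM in wild-type libraries. S11 had the highest sum, and the groups overlapped. Cholesterol synthesis genes were lower for 16 of 23 with a median of -0.07. Among clock genes 9 of 17 were higher, Per1 being the only one with an unadjusted p below 0.05.

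Interferon response and MHC class I genes were higher for 27 of 32 with a median of 0.15, and lower for 30 of 32 in oil, with a median of -0.27. Under tamoxifen they summed to 2265, 3660, 2430 and 2557 CPM in S2, S6, S11 and S15 and to 1436 to 3144 CPM in wild-type libraries. Chemokines and inflammatory cytokines were higher for 16 of 20 with a median of 0.15. They summed to 956, 1623, 1103 and 929 CPM in S2, S6, S11 and S15 and to 854 to 1199 CPM in wild-type libraries. Only S6 lay above the wild-type range. Myelin genes were lower for 14 of 20 with a median of -0.10, whereas 19 of 20 were higher in oil, with a median of 0.49. Microglial markers were higher for 10 of 12 and endothelial markers for 11 of 12, with medians of 0.22 and 0.20. The microglial markers summed to 1726, 3040, 1522 and 1961 CPM in S2, S6, S11 and S15 and to 1434 to 1992 CPM in wild-type libraries. Only S6 lay above the wild-type range. Neuronal markers were higher for 10 of 12 with a median of 0.13. Choroid plexus genes were lower for 7 of 7 tested, and S8 held most of their UMIs. No gene of these lists was called.

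Mice given oil offered the same genotype comparison on their own libraries. There, 0 of 15787 genes passed the test and 603 had an unadjusted p below 0.05 (3.82%). DESeq2 called 2, Tac2 and Fmo2. The genotype-by-treatment interaction, which asks whether the Esr1cKO difference differed between tamoxifen and oil, was fitted on all 16 libraries. It called 0 of 16626 genes, and 708 had an unadjusted p below 0.05 (4.26%). DESeq2 called 1, Aurkaip1. The interaction of Tac2 was -0.08 (unadjusted p = 0.925, edgeR), with log2 fold changes of 2.57 under tamoxifen and 2.64 under oil. For S100a9 it was 8.02 (unadjusted p = 3.4e-04), for Dhrs11 -2.05, for Scel -1.29, for Hspa1b 1.16 and for 2900076A07Rik -0.64, none of them past the adjusted threshold. Oil library S12, labelled as Esr1cKO from a female mouse, had 0.58 CPM of Xist against at least 228 CPM in every tamoxifen library, and oil library S10 had the same low share of long-intron UMIs as S11 (10.4%). Leaving out S10, S11 and S12 left the interaction with 0 genes called.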

How the data were processed

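The authors deposited a table of raw UMI counts per gene and barcode for each mouse (Drop-seq, STAR 2.6 and mm10 in the submitters' processing notes), with no normalization. From these counts, barcodes were kept at 201 to 3999 genes and under 15% mitochondrial UMIs, UMIs were summed per library, and Esr1cKO was compared with wild-type under tamoxifen in edgeR 4.0.16 (quasi-likelihood test, TMM, filterByExpr, genotype as the only term, two-sided, Benjamini-Hochberg over all genes tested, threshold 0.05; R 4.3.3). DESeq2 1.42.0 was an alternative. The authors' tests took cells as units; here mice were the units. Levels counted per transcript end are not divided by gene length, so levels were not compared between genes.

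Cells of all 16 libraries were clustered with Seurat 5.3.0 (2000 variable genes, 30 anchor dimensions, 20 principal components, resolution 0.05) and UMIs summed per library and cluster. Clustering used the same counts, so no marker was tested between clusters. Cell shares were set side by side with an exact permutation test.

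Genes were named by rule: Esr1, Nkx2-1, Pgr, Esr2, Gper1 and Greb1; called genes or, in whole libraries where too few passed, the 6 with the lowest p in each direction; up to 3 called genes per cell type and direction; and the members of each of 34 gene lists with the highest level. Where another gene is named, the text says so or gives the reason, such as an unadjusted p below 0.05. The comparison, the lists and the tests were chosen with earlier results of these data known. Alternatives were the normalization, the test, the filters on genes and barcodes, the libraries in the fit, a term for successive fours of library numbers, the clustering resolution, and leaving out each library. The genotype fit of whole tamoxifen libraries, in edgeR and in DESeq2, was tested on simulated counts with known changes. Its outcome is not given here. The counts were drawn around a profile shared by all libraries, so the simulation does not cover properties such as those of S8 and S11. Coordinates are from mm10 annotation and promoters from RefSeq (GRCm38.p6). Python 3.11.15 was used with numpy 2.4.6, pandas 2.3.3 and scipy 1.17.1.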

Additional observations from a re-analysis of the deposited data

Results flagged for a closer look

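Of 75 groups of 4 or 5 libraries examined, 10 held a library whose distance to its nearest neighbour took up most of the range of its group, where chance gives about 1 in 20. In Esr1cKO mice under tamoxifen these were S11 for Ntsr2 (150 CPM) and for the share of UMIs on long-intron genes (10.8%), and S15 for the share of polydendrocytes (5.69%). Among wild-type mice under tamoxifen, S8 stood apart for choroid plexus genes (6600.4 CPM summed), S9 for S100a9 (4.58 CPM) and for neutrophil genes (37.9 CPM summed), S13 for sex-linked genes (354 CPM summed) and for genes of the pituitary and pars tuberalis (399 CPM summed), and S16 for striatal genes (268 CPM summed, the lowest). Among Esr1cKO mice given oil, S12 stood apart for Xist (0.582 CPM), the transcript of the inactive X chromosome. S12 entered no fit of the tamoxifen libraries alone. It was part of the fits of all 16 libraries and of the oil comparisons, except where it was left out.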

How the results depend on the processing

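The absence of called genes in whole libraries under tamoxifen held in all 21 settings, with 0 genes called in each. The call of Nov in neurons held in edgeR with all 16 libraries, in DESeq2, without a filter on low counts and without barcodes shared between libraries, which was chosen after the data were seen. With a term for successive fours of library numbers its log2 fold change was 3.62 with no call, and over the omissions of single libraries it ranged from 3.41 to 3.99, the call being lost without S2, S3, S8, S9, S15 or S16 (6 of 9). Against 1 gene called over the 9 cell types, DESeq2 called 2, a fit without a filter on low counts 76 and a fit with the term for fours 0. Leaving out single libraries gave 0 to 6: 6 without S15 (Nov was not among them; Dcn in endothelial cells and neutrophil genes in microglia were), 3 without S11 and 2 without S6. In oil mice DESeq2 called 2 genes, a fit without S10 and S12 called 2, and leaving out single libraries gave 0 to 3, the 3 being without S10. For the interaction DESeq2 called 1. Differences in the share of cells that changed sign when single libraries were left out ranged from -2.60 to 2.32 percentage points for neurons, from -0.40 to 1.66 for ependymal cells, from -0.63 to 0.57 for mural cells and from -0.45 to 0.011 for fibroblasts, and none of these passed its test. The difference for astrocytes ranged from -8.18 to -4.88 points. Library numbers are unique over the series and the labels give no dissection day, so no number pairs one library with another. Successive fours of library numbers each held both genotypes under tamoxifen, and the fit with a term for them, in place of a block by day, called 0 genes in whole libraries. In neurons wild-type Nov rested on 35 UMIs in all, and counting error limits its level more than that of Esr1cKO.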

Other observations

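Neurons with at least 3 Tac2 UMIs differed in makeup between wild-type libraries. The 38 such cells of S16 held 2 UMIs of Pdyn and 0 of Tbx3 and Cited1, whereas the 18 such cells of S3 held 25 UMIs of Pdyn. The transcripts Pdyn and Tbx3 accompany Tac2 in the arcuate nucleus, and Tac2 is also made by neurons of other regions. Which regions these cells came from was not tested.

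Npy2r was higher in Esr1cKO than in wild-type neurons under both treatments without overlap (log2 fold changes of 1.23 and 1.12, neither called). The share of neuronal genes without overlap is not given here for either treatment. Neurons with at least 3 Tac2 UMIs carried 1 of the 265 Npy2r UMIs in Esr1cKO under tamoxifen.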
